A study of Mus musculus with 10 samples.

Results

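Chromatin that opened or closed when Myc-CaP cells received oxaliplatin together with interferon-γ was read from 2 ATAC-seq peak lists. An interval of the Oxali + IFNγ list was gained when it shared no base with an interval of the untreated (Ctrl) list, and a Ctrl interval was lost in the mirror case. Of 174709 Oxali + IFNγ intervals, 69773 were gained, which is 39.9%. Of 122298 Ctrl intervals, 10543 were lost, which is 8.62%. Together they are 80316 of the 748625 intervals in the 5 lists of the series. Myc-CaP is a prostate cancer line of the mouse, here labelled as FVB/NJ and male. The untreated cells received no agent. The treated cells received 2 µM Oxali and 1000 pg IFNγ, a dose the labels give without a volume, and both groups were sampled at 48 h. Each group has 2 libraries that the authors pooled into 1 list, so every difference below is between 2 pooled lists and none was set against the spread between replicates.

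IFNγ binds a receptor pair, IFNGR1 and IFNGR2, whose kinases JAK1 and JAK2 pass the signal to the nucleus. There IRF1 is switched on and, with it, genes of antigen presentation, guanylate-binding GTPases and antiviral enzymes, many of which carry an interferon-stimulated response element (ISRE) near their start site. Oxaliplatin crosslinks DNA, and ATAC-seq reports where a transposase can reach the DNA, as happens at promoters and enhancers in use.

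Sequences at the summits of 9 gained intervals and of 1 kept start site are shown because they hold the letters counted further on, the first 5 of them at antiviral genes and a GTPase gene. They are the + strand of mm10 (RefSeq GRCm38.p6), 5′ to 3′, and capitals mark exact matches on either strand. At Isg15, Rsad2, Oas1a and Gbp5 the capitals mark the ISRE letters GAAANNGAAA. The Isg15 window holds 3 matches and the Oas1a window 2, each merged into 1 run of capitals. The start sites of the Rsad2 and Gbp5 windows are annotated ones other than the 5′ end of the gene, where both lists had an interval. Isg15 codes for a ubiquitin-like modifier, Rsad2 for viperin, and Oas1a for a synthetase that answers double-stranded RNA.
Isg15, start site, chr4:156200819-156200913: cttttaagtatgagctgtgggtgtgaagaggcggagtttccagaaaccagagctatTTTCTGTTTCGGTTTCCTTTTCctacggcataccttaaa
Rsad2, 3839 bp upstream, chr12:26460216-26460365: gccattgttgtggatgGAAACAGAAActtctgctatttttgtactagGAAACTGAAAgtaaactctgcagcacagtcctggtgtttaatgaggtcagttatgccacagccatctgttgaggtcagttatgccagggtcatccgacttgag
Rsad2, start site, chr12:26454843-26454984: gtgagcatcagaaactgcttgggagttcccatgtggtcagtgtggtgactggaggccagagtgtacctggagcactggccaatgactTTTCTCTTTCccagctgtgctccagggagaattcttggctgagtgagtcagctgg
Oas1a, start site, chr5:120907522-120907604: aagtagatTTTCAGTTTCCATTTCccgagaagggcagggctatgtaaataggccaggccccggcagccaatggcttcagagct
Gbp5, start site, chr3:142496697-142496846: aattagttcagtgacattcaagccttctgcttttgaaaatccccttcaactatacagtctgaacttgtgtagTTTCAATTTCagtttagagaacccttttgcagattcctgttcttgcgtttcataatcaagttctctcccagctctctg
The next windows are from the gained intervals of highest significance with a match to NF-κB (GGGANTTTCC), at Nupr1 and Sh2d4b, and to AP-1 (TGANTCA), at Arhgap22 and Tmem132c, the families of factors that answer cell stress and cytokines.
Nupr1, start site, chr7:126628102-126628251: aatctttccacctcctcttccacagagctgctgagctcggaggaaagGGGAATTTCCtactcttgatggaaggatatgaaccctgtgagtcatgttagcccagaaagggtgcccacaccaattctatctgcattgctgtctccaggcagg
Sh2d4b, 171379 bp from its start, chr14:40681851-40682000: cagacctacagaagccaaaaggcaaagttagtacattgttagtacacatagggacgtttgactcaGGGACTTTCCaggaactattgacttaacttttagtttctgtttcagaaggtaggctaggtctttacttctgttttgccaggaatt
Arhgap22, intron, chr14:33288037-33288186: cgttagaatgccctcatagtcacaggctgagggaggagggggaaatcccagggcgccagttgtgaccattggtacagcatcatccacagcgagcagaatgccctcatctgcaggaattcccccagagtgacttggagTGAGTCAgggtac
Tmem132c, between genes, chr5:126967174-126967323: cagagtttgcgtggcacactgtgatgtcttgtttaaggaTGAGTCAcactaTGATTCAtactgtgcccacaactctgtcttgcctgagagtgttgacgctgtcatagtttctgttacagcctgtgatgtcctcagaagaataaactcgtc
The last window is the start site with the lowest level relative to Ctrl, at Usp28, and its capitals mark a GC box (GGGGCGG), the letters that SP and KLF factors bind at promoters.
Usp28, start site, chr9:48984989-48985138: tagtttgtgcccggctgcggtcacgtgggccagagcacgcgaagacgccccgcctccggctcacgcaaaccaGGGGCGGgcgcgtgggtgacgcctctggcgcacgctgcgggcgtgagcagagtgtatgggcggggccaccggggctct

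The level of an interval is given as its pileup, the number of read ends stacked at the highest summit after the authors' extension, and is divided, where lists are compared, by the genome background that each list carries. That background was 12.9 in the Oxali + IFNγ list and 12.1 in the Ctrl list, which makes their depths close. The Oxali list had 11.3, the IFNγ list 9.62 and the Cispl list 13.8. The weakest Ctrl interval had a pileup of 21, but the threshold rises with the local background, so a missing Ctrl call sets no fixed limit on the level there and no fold is given against it. Of markers of luminal prostate epithelium, Krt8, Hoxb13 and Foxa1 held a start-site interval in both lists, while Epcam, Cdh1 and Cldn7 held none in either. Among markers of other cells, the leukocyte genes Csf1r (85 in Ctrl, 240 with Oxali + IFNγ) and Ptprc (gained) had start-site intervals, Cd3e and Itgam had none, and Krt14 of basal cells went from 35 to 105. Of the endothelial markers Pecam1 had 29 and 35 while Cdh5, Kdr and Tek had none in either list, and of the fibroblast markers Col1a1 had 606 and 366, Pdgfra 1358 and 1116, and Dcn none. The part of other cell types in the results was not tested. In bulk chromatin, more cells with an open site and more opening per cell cannot be told apart.

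Gained intervals were many, narrow and weak beside the kept ones. Their median width was 223 bp against 541 bp for the 104936 kept intervals of the same list, and their median pileup was 43 against 151. They covered 19.4 Mb of the 87.1 Mb in the list. A pileup of 100 was reached by 7755 of them, and 67.7% passed a q-value of 1e-05. Lost intervals were narrower still, with a median width of 183 bp and a median pileup of 36, and at least 50% of the summit window was annotated repeat in 32.1% of them against 15.4% of the gained. Of all gained and lost intervals, 86.9% were gained (95% Wilson interval 86.6 to 87.1, counting error only). Where the longer list was shortened to the length of the Ctrl list by significance, 28422 were gained and 20837 lost, a gained share of 57.7%.

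Of the 12 gained intervals of highest significance, 11 lay away from start sites, in introns, exons or between genes. The first was in an intron of Arhgap22, which codes for a RAC1 GTPase-activating protein, at chr14:33287761-33288717. Its pileup was 406 with Oxali + IFNγ and 253 with Oxali alone, it had 82 with Cispl, and no call was made with IFNγ alone or in Ctrl. Others were in introns of Thada (pileup 365) and of Prkar1b (402), a subunit of protein kinase A, and between genes near Tmem132c (298), Fstl4 (307) and Runx2 (291), the last a factor of bone cells. All 12 intervals were also called with Oxali alone and with Cispl, whereas 6 of them had a call with IFNγ alone. The interval near Usp26 is 89% repeat, and the one at Wipi1 lay 304 bp from a Ctrl interval.

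Start-site gains of highest significance were at Wipi1 (pileup 674), Akt2 (451), Prkg1 (216), Aldh6a1 (632), Nupr1 (439) and Nop14 (489). Akt2 codes for a kinase of insulin signalling and Nupr1 for a small stress-induced chromatin protein. The nearest Ctrl interval was 304 bp away at Wipi1, 416 bp at Nop14, 1899 bp at Nupr1 and 46640 bp at Prkg1. The Nupr1 interval had a pileup of 327 with Oxali, 118 with IFNγ and 222 with Cispl. Lost intervals of highest significance mostly lay beside a kept one. At Tex14 a Ctrl interval of pileup 1158 ended 95 bp from an Oxali + IFNγ interval, and at Hhat one of 493 ended 59 bp away. Of the 10 named losses, the farthest from an Oxali + IFNγ interval were near Galnt15 (pileup 176, 5964 bp) and 127118 bp from the start site of Fgfr2 (360, 1782 bp).

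By position, 7468 gained intervals overlapped 1 kb on either side of an annotated start site, which is 10.7% (95% Wilson interval 10.5 to 10.9), against 21.3% of kept and 11.6% of lost intervals. Introns held 41.3% of the gained and 36.7% of the kept, and 42.6% of the gained lay between genes against 34.8% of the kept. Windows rich in CpG, with at least 10 CpG in 200 bp, made up 0.714% of the gained and 10.9% of the kept. Gained intervals were thus poorer in start sites and in CpG than kept ones.

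Along the chromosomes the gained share of the list ran from 35.1% on chromosome 11 to 45.3% on chromosome 18, leaving out Y with its 72 intervals. The lost share of Ctrl intervals ran from 6.80% on chromosome 1 to 11.1% on X. In 1-Mb bins the median was 26 gained intervals, and the highest count, 95, was at chr8:120000001-121000000, which holds Irf8 and Gse1 and also 125 kept intervals. In 46 bins lost intervals outnumbered gained ones. The first was chrX:97000001-98000000 at Eda2r with 86 lost and 62 gained.

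Regions called in both lists had lower ratios at start sites than elsewhere. Over 103120 kept regions the median ratio of scaled pileup, Oxali + IFNγ over Ctrl, was 1.13. It was 0.762 over 21871 regions at start sites and 1.22 over 81249 regions elsewhere. At least 2-fold higher were 16498 kept regions (16.0%), of which 14822 lay away from start sites. At least 2-fold lower were 5765 (5.59%), of which 4720 were at start sites. The split depends on the scaling: with the median start-site region set to 1, 30339 were 2-fold higher and 1424 were 2-fold lower. The order of the 2 classes does not, since any scaling moves both alike.

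**Figure D1:**
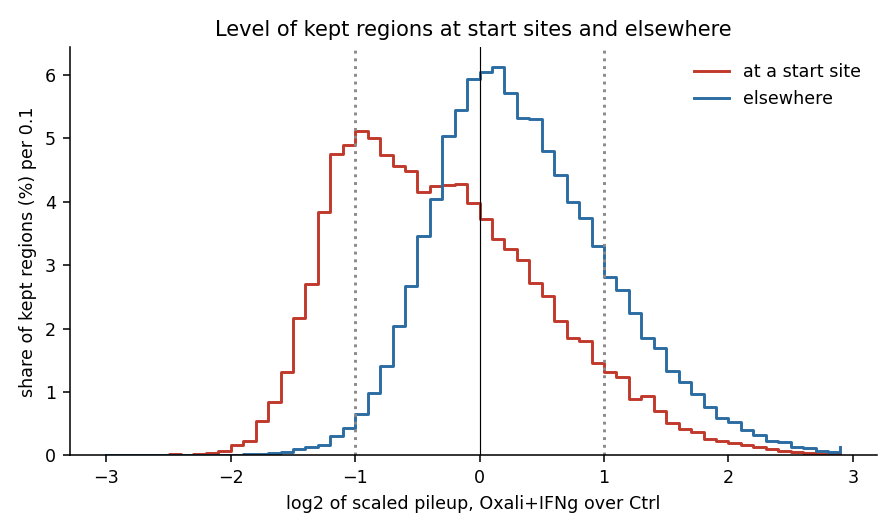
Share of kept regions by the log2 ratio of scaled pileup, Oxali + IFNγ over Ctrl, in steps of 0.1, for 21871 regions at start sites and 81249 elsewhere, with dotted lines at 2-fold. The start-site curve peaks near 2-fold lower and the other curve slightly above no change.

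The gap followed the level of the region. Among regions with a Ctrl pileup of at least 1000, the median ratio was 0.483 at 6916 start sites and 0.708 at 1331 other sites, and from 20 to 50 it was 1.51 and 1.55. Classed by the mean scaled level of both lists, the strongest regions had medians of 0.473 and 0.729 and the weakest 1.20 and 1.22. Among strong regions the start sites were lower than the others, and among weak ones the medians were close.

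The 8 kept regions with the largest ratios lay outside start sites. One in an intron of Kcnn3, a potassium channel gene, had a pileup of 25 in Ctrl and 444 with Oxali + IFNγ, a ratio of 16.7 (11.2 to 26.1, exact 95% interval of the ratio, counting error only), with 225 in Oxali and 39 in IFNγ. Others were near Itm2a (38 and 635), in Gsap (31 and 459) and in Crocc2 (34 and 502). Each of these stood higher with Oxali alone than with IFNγ alone. Of the 8 smallest ratios, 5 lay outside start sites. They were at a distal region 286409 bp from Gadd45g, with 899 in Ctrl and 106 with Oxali + IFNγ (ratio 0.111), near Igfbp2 (164 and 28), Gm45871 (244 and 46) and Mtf2 (228 and 45), and at an exon of Vil1 (584 and 109). The other 3 were the start sites of Usp28 (2164 and 424), Csnk1g2 (1850 and 367) and Marf1 (1992 and 400). Usp28 codes for a deubiquitinase of the DNA damage response, and its printed window holds the GC box.

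Among protein-coding genes, 13326 of 21938 (60.7%) had a gained interval in the gene or 5 kb around it, and 4801 (21.9%) had a lost one. The share moved with gene length and was 33.1% under 5 kb and 92.5% from 100 kb on. The genes with the most gains were long. Dlgap2, a postsynaptic scaffold gene, had 59 gained, 0 lost and 12 kept intervals, Rgs6 had 51 gained and 0 lost, and Dgki, Ttc28, Mecom, Slit3 and St6galnac3 had 48 to 56 gained. The models of Gm20388 (322 gained) and Fgfr2 (114) span several megabases and take in other genes. A gained interval at a start site was found for 4295 genes (19.6%).

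For 13199 genes with a kept region within 1 kb of any of their start sites, the strongest such region had a median ratio of 0.55. It was at least 2-fold higher in 555 genes (4.20%) and at least 2-fold lower in 5081 (38.5%). Strongest means the highest pileup in either list, so the choice rests partly on the Oxali + IFNγ level. At 5′ ends alone the median ratio was 0.54 over 11934 genes. With genes sorted by level into 10 equal classes, the median ratio was 1.35 in the lowest class and 0.456 in the highest. For each list the number of members above the median of their own level class is therefore given too, and 6596 of the 13199 genes lay above it. The largest start-site ratios over all genes included 7.97 at Lemd1, 7.78 at Dclk1, 7.43 at Il2rb (104 in Ctrl, 822 with Oxali + IFNγ, 630 with Oxali, 135 with IFNγ) and 5.92 at the chemokine gene Ccl9.

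**Figure D2:**
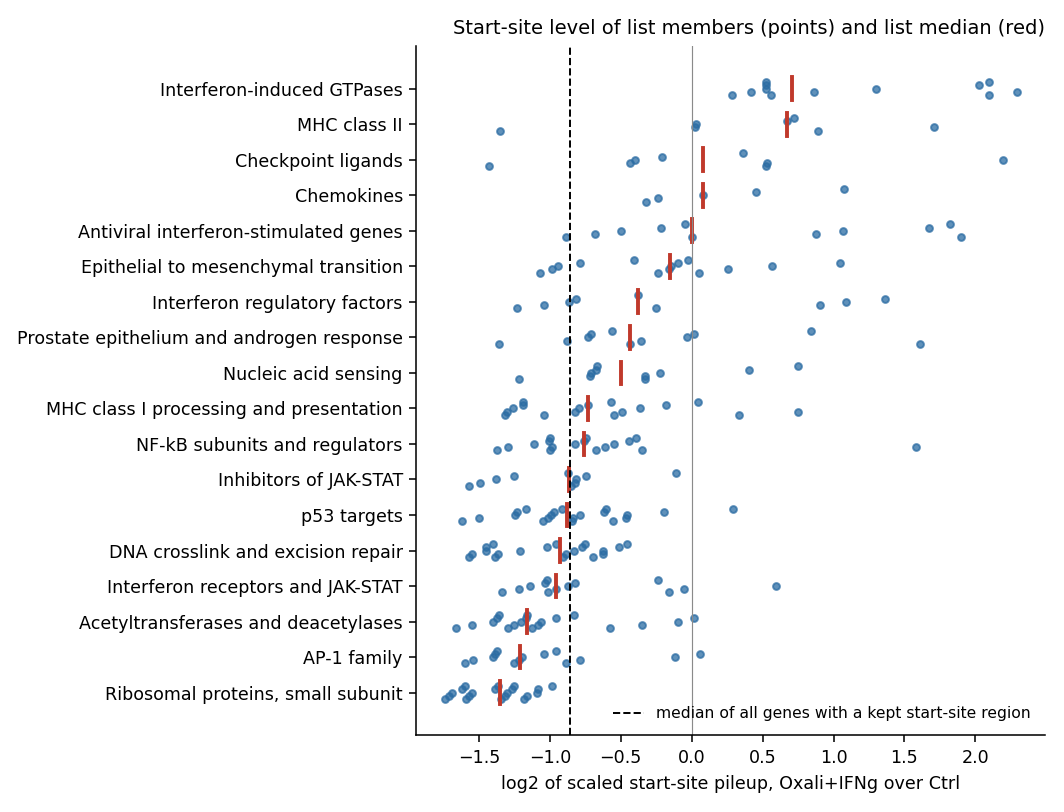
Log2 ratio of scaled start-site pileup, Oxali + IFNγ over Ctrl, for each list member with a kept region (points) and the list median (red bar), with the dashed line at the median of 13199 genes. The medians of the GTPases (1.64-fold) and MHC class II (1.60-fold) lie highest and close together, in the other order at 5′ ends alone (1.47 and 1.60), and the ribosomal proteins lie lowest.

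The interferon-induced GTPases, which attack intracellular microbes, had, with MHC class II, the higher median start-site ratios among the pathway lists, and some gene families described further on had higher ones. Of 13 members, 12 had a gained interval against 60.7% of all genes, and 4 had one at a start site against 19.6%. All 12 with a kept start-site region had a ratio above 1, with a median of 1.64 and a range of 1.22 to 4.89. MHC class II genes had 1.60, and at 5′ ends alone the order turned, with 1.47 for the GTPases and 1.60 for MHC class II. All 12 lay above the median of genes of the same level, and 5 were at least 2-fold higher against 4.20% of all genes. Gbp4 and Gbp8 share 1 region, which counts in both.

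The largest ratios were in the Gbp cluster of chromosome 5. At Gbp9 the pileup was 40 in Ctrl and 208 with Oxali + IFNγ, a ratio of 4.89 (3.47 to 7.04), with 157 in Oxali, 43 in IFNγ and 123 in Cispl. At Gbp6 it was 65 in Ctrl and 281 with Oxali + IFNγ, a ratio of 4.07 (3.10 to 5.41), with 132 in Oxali, 48 in IFNγ and 117 in Cispl. The shared region of Gbp4 and Gbp8 had 37, 168, 112, 28 and 77 in Ctrl, Oxali + IFNγ, Oxali, IFNγ and Cispl. At the 5′ end of Gbp9 itself the region is this shared one. Scaled by depth, IFNγ alone over Ctrl was 1.36 at Gbp9, 0.932 at Gbp6 and 0.955 at the shared region, and Oxali alone over Ctrl was 4.23, 2.19 and 3.26.

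On chromosome 3 the cluster had higher Ctrl levels and smaller ratios. Gbp7 went from 163 to 426 (ratio 2.46), Gbp2 from 316 to 484 (1.44), Gbp3 from 366 to 560 (1.44) and Gbp5 from 239 to 309 (1.22). The immunity-related GTPases had similar values, with 1.44 at Irgm1, 1.34 at Irgm2, 1.47 at Igtp and 1.82 at Iigp1. The values of Irgm2 and Iigp1 are from start sites other than the 5′ end. At its 5′ end Irgm2 shares the region of Igtp, which counts for both in the 5′-end median, and Iigp1 had no kept region. Mx1, whose product blocks influenza virus, had no kept start-site region but 2 gained ones of pileup 67 and 76. Over the 12 genes the scaled level of the combination was above that of IFNγ alone in 12 and above that of Oxali alone in 10, with median ratios of 1.77 and 1.21. Over all genes the combination was above IFNγ in 3146 of 12912 and above Oxali in 1606 of 13100, with medians of 0.802 and 0.756. The all-gene values include strong start sites, whose ratios to Ctrl were lower. For the combination over IFNγ, olfactory receptors had a median of 2.2 (21 of 24 above 1) and interleukin genes 1.86 (16 of 18). Both exceed the 1.77 of the GTPases, and the other gene families lay lower. Over Oxali the medians were 1.04 for olfactory receptors and 1.05 for interleukin genes. A high level over IFNγ alone is thus not particular to the GTPases. All 3 treated lists are compared with the same Ctrl list. The GTPase medians against it were 1.46 for Oxali, 0.932 for IFNγ and 1.23 for Cispl, against 0.734, 0.685 and 0.642 over all genes.

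**Figure D3:**
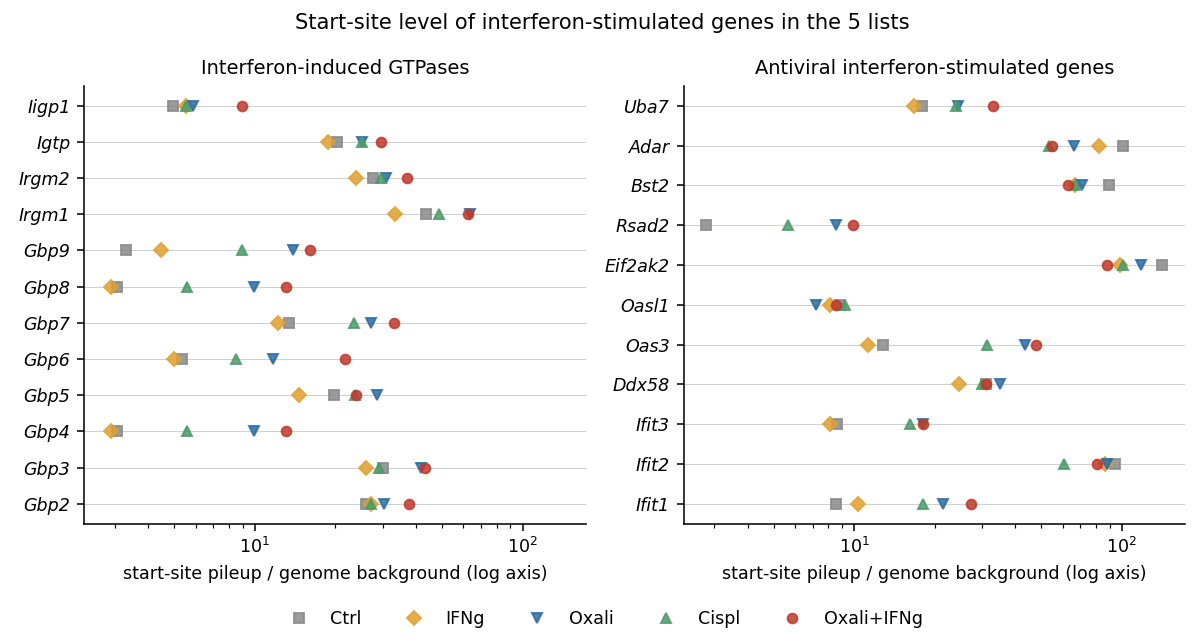
Start-site pileup divided by genome background (log axis) for GTPase genes (left) and antiviral genes (right) with a kept start-site region, in each of the 5 lists. Oxali + IFNγ lies above IFNγ at all 12 GTPase genes, while Adar, Bst2 and Eif2ak2 lie below Ctrl in each treated list.

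Among antiviral interferon-stimulated genes, several weak start sites were higher and strong ones lower. Of 16 members, 13 had a gained interval against 60.7% of all genes, 8 had one at a start site against 19.6%, and 5 had a lost one against 21.9%. The 11 kept start sites had a median ratio of 1.00, with 4 at least 2-fold higher and 10 of 11 above genes of the same level.
Oas3 went from 156 in Ctrl to 619 with Oxali + IFNγ, a ratio of 3.73 (3.13 to 4.48), with 489 in Oxali, 108 in IFNγ and 430 in Cispl. Rsad2 went from 34 to 128 (3.54), Ifit1 from 104 to 352 (3.18), Ifit3 from 105 to 234 (2.1) and Uba7, the E1 enzyme that activates Isg15, from 218 to 426 (1.84). The sensor kinase gene Eif2ak2 (0.624), the RNA editing gene Adar (0.54, and 0.589 at its 5′ end) and the tetherin gene Bst2 (0.707) lay below 1. Ifit2, at 1143 in Ctrl, had 0.859. Dividing by the start-site median of 0.762 leaves the first 3 below 1 and puts Ifit2 above it.

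Annotated start sites of this list that gained an interval included windows printed above. The Isg15 interval had a pileup of 410 over a local background of 128, with 359 in Oxali, 224 in IFNγ and 303 in Cispl, and the nearest Ctrl interval was 1803 bp away. The Oas1a interval had 103, with 52 in Oxali, 53 in Cispl and no call in IFNγ. At Rsad2 the 5′ end was kept, with the 34 and 128 given above. The gain at another annotated start site of Rsad2 had 109 and the distal one 171, both called in Oxali and Cispl and neither in IFNγ. Oas2 gained a start-site interval of 52 that no other treated list held, and Zbp1, a nucleic acid sensor, gained one of 45.

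Genes of MHC class I processing and presentation lay near all genes in their ratios. Of 17 members, 6 had a gained interval, below the 60.7% of all genes, and their median length was 5778 bp. The median start-site ratio was 0.603 against 0.55 over all genes, with 6 of 17 at least 2-fold lower against 38.5%, 0 at least 2-fold higher and 11 of 17 above genes of the same level. The immunoproteasome gene Psmb8 had 1.26. The peptide-loading genes were mixed, with 1.68 (1.42 to 2.00) at Tapbpl, 0.88 at Tap2 and 0.566 at Tapbp, while Psmb9 and Tap1 share a divergent start-site region that went from 1189 to 553. B2m, the invariant light chain, went from 1220 to 876, and H2-K1 and H2-D1, the heavy chains, had ratios of 0.71 and 0.685. These 3 lay above the median of all genes and below 1, on the scale of the genome background.
Nlrc5, the class I transactivator, stood apart with 12 gained intervals, the strongest with pileups of 189, which lay 101 bp from a Ctrl interval, and 129. At its own 5′ end the pileup went from 89 to 206, a ratio of 2.18 (1.69 to 2.82), whereas the strongest start-site region, at a later annotated start, had 324 and 356.

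MHC class II genes, which epithelial cells can express under IFNγ through the transactivator CIITA, had 8 of 9 members with a gained interval against 60.7% of all genes, and 0 with a lost one against 21.9%. The median start-site ratio over 7 genes was 1.60, but these start sites are weak, the median of their level classes was 1.35, and 4 of 7 lay above their class. H2-Aa and Cd74, both at 1.02, lay below it. H2-Ab1 went from 47 to 163, a ratio of 3.26 (2.35 to 4.61), with 132 in Oxali, 49 in IFNγ and 99 in Cispl, and H2-Eb1 from 159 to 313 (1.85). H2-DMa went from 1623 to 675 (0.391). Ciita had no kept start-site region and 10 gained intervals, of which the strongest, at an internal start site at chr16:10489375-10490625, had a pileup of 89 with Oxali + IFNγ, 50 with Oxali, 24 with IFNγ and 54 with Cispl, an ISRE match, and its nearest Ctrl interval 11070 bp away.

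**Figure D4:**
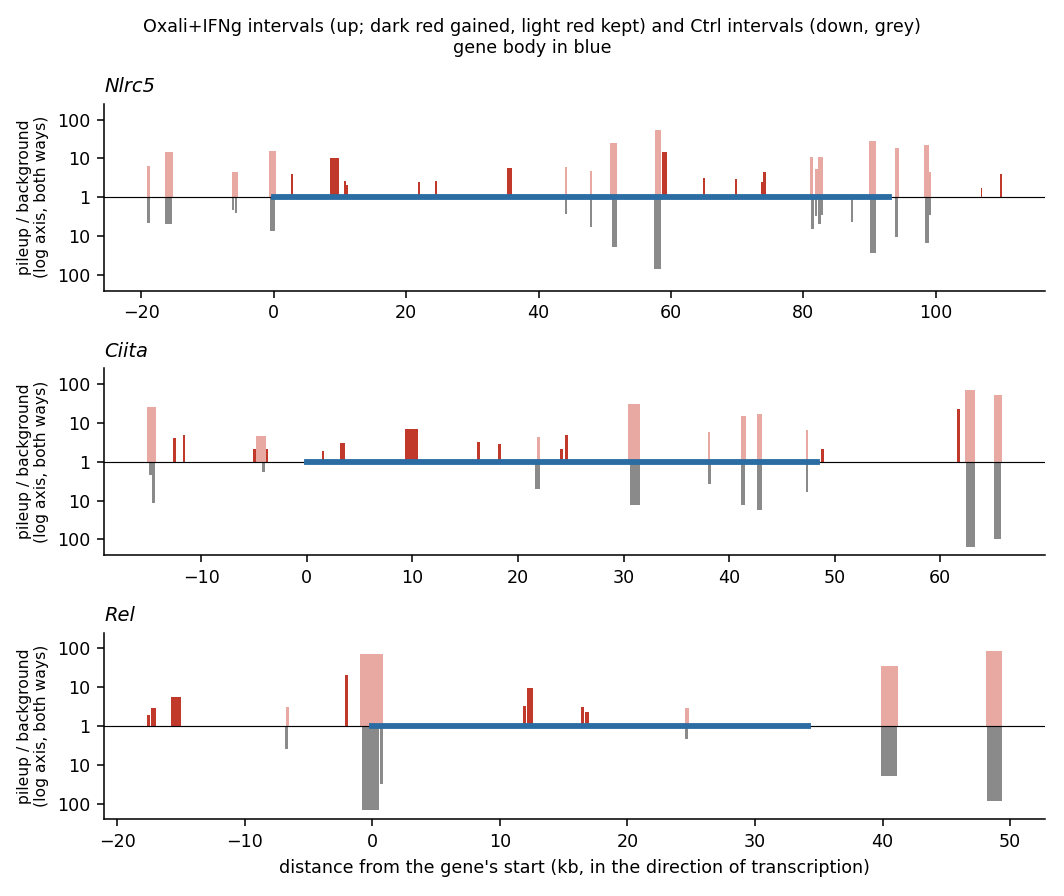
Intervals at Nlrc5, Ciita and Rel by distance from the gene's start in kb, with the pileup over the genome background of Oxali + IFNγ drawn upward (dark red gained, light red kept) and of Ctrl downward (grey), both on log axes starting at the genome background. Most gained intervals lie inside the gene and are weaker than the kept ones.

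Start sites of receptors, kinases and STAT factors of the pathway mostly lay below 1. Over 13 genes the median ratio was 0.516, with 6 at least 2-fold lower against 38.5% of all genes, 0 at least 2-fold higher and 8 of 13 above genes of the same level. Ifngr1 went from 2133 to 897 (0.396), Jak1 from 1601 to 771 (0.453) and Jak2 from 3107 to 1808 (0.547). Ifngr2 had 140 and 122 at its 5′ end (0.82, interval 0.638 to 1.05) and 88 and 141 at another start site (1.51). Gained intervals lay at 11 of 14 members against 60.7% of all genes. The inhibitors had a median of 0.55 over 10 genes, the value of all genes, with 0.554 at Socs1 and 0.928 at Usp18, and 6 of 10 lay above genes of the same level.

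Interferon regulatory factors differed by level. Irf1 (1721 and 1039, ratio 0.568), Irf2 (0.485), Irf3 (0.426) and Irf9 (0.549) lay below 1, whereas Irf5 (51 and 115, 2.12) lay above it, at a start site other than the 5′ end of the gene. Irf8, the factor of myeloid cells, had 63 and 172 at an internal start site (2.57) but 133 and 107 at its 5′ end (0.757). The list median was 0.77, which becomes 1.01 with start sites as the scale and 0.568 with 5′ ends alone. The side of 1 on which this list lies thus depends on the scale, and 7 of 9 lay above genes of the same level.

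All 10 genes of the checkpoint ligands had a gained interval, against 60.7% of all genes and 71.7% of genes of 20 to 50 kb, the class of their median length of 28487 bp. A lost interval was found at 2 of the 10, against 21.9% of all genes. Tnfrsf14, the receptor HVEM, which binds BTLA, went from 98 to 476, a ratio of 4.57 (3.67 to 5.74), with 244 in Oxali, 74 in IFNγ and 269 in Cispl. Cd274, which codes for PD-L1, went from 135 to 206 (1.44, interval 1.15 to 1.8) and gained 3 intronic intervals of pileup 107, 107 and 68. Nectin2 went from 2368 to 934 (0.371) and Cd276 from 190 to 175 (0.866, not at its 5′ end). The median over 8 start sites was 1.08, and 0.849 over 6 at 5′ ends, and 5 of 8 lay above genes of the same level. Pdcd1lg2 and Cd86 had 3 gained intervals each and no kept start-site region.
Chemokine genes had a kept start-site region in 5 of 13. Cxcl10 went from 93 to 208 (2.1), Cxcl2 from 229 to 333 (1.37), Cx3cl1 from 674 to 756 (1.06), Cxcl1 from 968 to 825 (0.802) and Cxcl5 from 984 to 888 (0.849), and all 5 lay above genes of the same level. Of 11 nucleic acid sensing genes, 5 had a gained interval against 60.7% of all genes, and the 10 start sites had a median of 0.713 with 5 above genes of the same level, with 0.856 at Cgas and 0.43 at Tbk1.

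NF-κB subunits and regulators had 13 of 18 members with a gained interval, near the 60.7% of all genes, and a median start-site ratio of 0.59, and 13 of 17 lay above genes of the same level. Traf1, an adaptor of TNF receptors, went from 69 to 219 (2.99), with 226 in Oxali and 34 in IFNγ, at a start site that is not the 5′ end. Tnip1 went from 72 to 194 (2.53) at its 5′ end, which is not its strongest start-site region. At 5′ ends 1 of 16 genes was at least 2-fold higher and 5 were at least 2-fold lower. Nfkbia had 0.686, Nfkb2 0.656, Rela 0.499 and Relb 0.408. Rel gained 5 intervals, 1 of them 2016 bp upstream with a pileup of 267, and Nfkbiz gained 6. Of p53 targets, 16 of 21 had a gained interval against 60.7% of all genes. Their median ratio was 0.544, near the 0.55 of all genes, and 7 of 20 were at least 2-fold lower, near the 38.5% of all genes, with 15 of 20 above genes of the same level. The values ran from 0.325 at Btg2 to 1.22 at Fas, with 0.426 at Cdkn1a at a start site that is not its 5′ end.

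The lowest list median was that of ribosomal proteins. The 20 ribosomal proteins of the small subunit had ratios of 0.30 to 0.506 with a median of 0.391, 19 were at least 2-fold lower against 38.5% of all genes, and 1 of 20 lay above genes of the same level. At 5′ ends alone the median was 0.401, and 16 of 19 were at least 2-fold lower, against 4815 of 11934 genes. The acetyltransferases and deacetylases had a median of 0.448, with 5 of 19 above genes of the same level. At least 2-fold lower were 13 of 19, against 38.5% of all genes and 592 of 1320 in their median level class. The list includes Ep300 (1627 and 675) and Kat6a (1292 and 434), while Hdac9 held 20 gained intervals and Hdac4 held 13. At its 5′ end, not its strongest start-site region, Hdac4 went from 123 to 300 (2.29). At 5′ ends 11 of 17 genes were at least 2-fold lower. The AP-1 family had 0.433, with Jun at 0.436, Jund at 0.344 and 6 of 14 genes above genes of the same level. At least 2-fold lower were 9 of 14, against 38.5% of all genes and 747 of 1320 in their median level class. Crosslink and excision repair genes had 0.524, with 18 of 20 holding a gained interval against 60.7% of all genes, 12 of 20 holding one at a start site against 19.6%, and 10 of 20 above genes of the same level. Their median length was 35643.5 bp, and 71.7% of genes of 20 to 50 kb had a gained interval. All 20 had a kept start-site region, against 13199 of 21938 genes. Among the lowest were Xpc (0.336), Ddb2 (0.342) and Ercc1 (0.379). Prostate epithelium genes had a median of 0.738, with Tmprss2 at 3.05 (33 and 107, not at its 5′ end), Fkbp5 at 0.39 (0.65 at its 5′ end) and 8 of 11 above genes of the same level, and genes of epithelial to mesenchymal transition 0.898, with Zeb1 at 2.06, not at its 5′ end, and 11 of 14 above. The last median is 1.18 with start sites as the scale.

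Gene families differed in the share of members with a gain, and their lengths differed too, with a median of 90274 bp for clustered protocadherins, 114388 bp for collagens, 22238 bp for Wnt ligands, 5987 bp for olfactory and 5253 bp for Frizzled receptors. Over all genes the share was 60.7%, and by length it was 50% from 5 to 20 kb, 71.7% from 20 to 50 kb, 85.2% from 50 to 100 kb and 92.5% above. Of 57 clustered protocadherins, 55 had a gained interval and 0 a lost one, with overlapping models sharing intervals, and Wnt ligands had 18 of 19, collagens 40 of 44 and integrins 28 of 31. At the other end were olfactory receptors with 152 of 1093 (13.9%), vomeronasal receptors with 58 of 327 (17.7%) and Frizzled receptors with 1 of 10. Start sites of interleukin genes had a median ratio of 1.71 over 20 genes and those of olfactory receptors 1.68 over 30 genes. Of the interleukin genes 9 were at least 2-fold higher against 4.20% of all genes, and 15 of 20 lay above genes of the same level. The lowest level class of all genes had a median of 1.35 with 310 of 1320 at least 2-fold higher. Replication-dependent histone genes had 0.694 over 65 genes, 61 of which lay above genes of the same level. The 76 ribosomal protein genes, both subunits, had 0.422, and 11 lay above genes of the same level.

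Motif letters were counted within 100 bp of the summit, as shares of intervals with an exact match on either strand. Over 185252 intervals, the Oxali + IFNγ list and the lost ones, 2.67% held an ISRE, 0.369% NF-κB, 22.0% AP-1, 12% CTCF (CCANNAGNNGGC), 1.93% ETS (CCGGAAG) and 4.40% a GC box. A match is a string of letters and does not show that a factor was bound.
Gained intervals held an ISRE in 3.91% (95% Wilson interval 3.76 to 4.05), kept ones in 1.98% and lost ones in 1.35%. The same letters in reversed order were found in 3.08% of gained and 1.86% of kept intervals, a smaller gap in the same direction. NF-κB letters were found in 0.586% (0.532 to 0.646) of gained, 0.255% of kept and 0.0664% of lost intervals, and in reversed order in 0.229% and 0.247%. In gained intervals with a pileup of at least 100 the NF-κB share was 0.89% and the ISRE share 3.24%. At equal pileup outside start sites, 3.96% of gained and 1.86% of kept intervals held an ISRE from 30 to 50. The shares were 4.52% and 2.06% from 50 to 100, and 3.93% and 2.42% from 100 to 200. From a pileup of 200 on they were 2.25% and 1.98%, with overlapping 95% intervals.

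**Figure D5:**
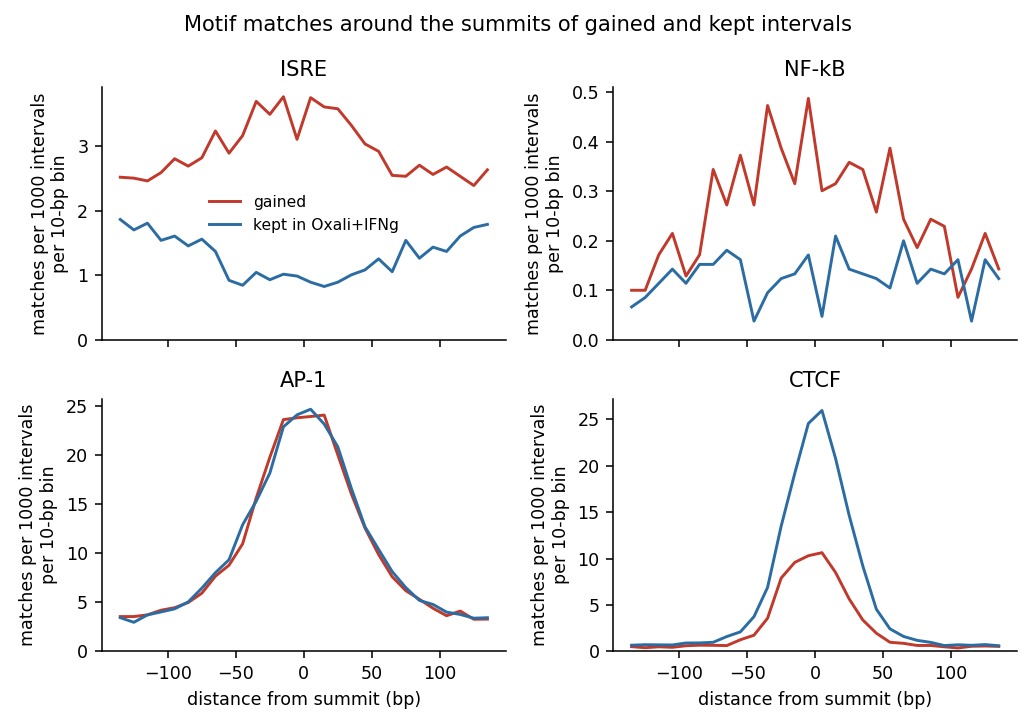
Matches per 1000 intervals in 10-bp bins by distance from the summit, for gained (red) and kept (blue) intervals of the Oxali + IFNγ list. ISRE and NF-κB letters are higher around the summit of gained intervals, AP-1 letters have close profiles over all pileups, and CTCF letters are higher in kept ones.

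AP-1 letters were in 23.0% of gained, 22.6% of kept and 10.6% of lost intervals. At equal pileup outside start sites the shares differed, with 22.1% of gained and 16.8% of kept intervals from 30 to 50, 28.2% and 20.5% from 50 to 100, 28.4% and 24.5% from 100 to 200, and the reverse, 24.8% and 33.0%, from 200 on. Within kept regions they followed the level, with 37.5% of those at least 2-fold higher and 4.79% of those at least 2-fold lower. At the lower end most regions were start sites, so the comparison there was also made among start sites alone, where 3.16% of the lower ones and 12.9% of all kept ones held AP-1 letters, and 1.89% and 4.39% held them in reversed order. GC boxes ran the other way, with 45.1% of the lower start sites against 21.4% of all kept start sites. In reversed order, which is also a form of GC box, the letters were in 45.6% against 21.3%. For GC boxes the reversed count is therefore no control for base composition. ETS letters were in 16.7% against 8.65%, and in reversed order in 5.13% against 4.00%. CTCF letters were found in 6.90% of gained, 15.3% of kept and 12.5% of lost intervals, and in 4.54% of kept regions at least 2-fold higher and 4.56% of those at least 2-fold lower.
Of 191 gained intervals near members of the interferon, antigen presentation, sensing and checkpoint lists, 11 held an ISRE, where 3.91% of all gained intervals did. The 11 include the printed windows at Isg15, Oas1a, Rsad2 and Gbp5.

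The gained intervals were looked up in the lists of the single agents, which share the Ctrl list with the combination. Of them, 60.5% overlapped an Oxali interval, 12.6% an IFNγ interval and 57.0% a Cispl interval. In Oxali and not in IFNγ were 51.2%, in IFNγ and not in Oxali 3.22%, in both 9.35%, and in neither 36.3%, which is 25311 intervals. The IFNγ list is the shallowest and the Cispl list ends at a stricter p-value, and their part in these shares was not tested. Among gained intervals with a pileup of at least 100 the share in Oxali was 76.8%, in IFNγ 25.2% and in neither 19.3%.
ISRE letters were in 4.93% of the gained intervals called in neither single-agent list, in 3.47% of those shared with Oxali alone, in 2.76% of those shared with both and in 2.54% of those shared with IFNγ alone. The same letters in reversed order ran in that order too, with 3.81%, 2.78%, 2.27% and 1.96%. AP-1 letters ran from 18.2% in neither to 34.7% in both. Where a gained interval was called in both lists, the scaled level of the combination over Oxali had a median of 1.04 with 80% of intervals between 0.75 and 1.42, and over IFNγ a median of 1.27 with 80% between 0.746 and 2.45. Of the lost intervals, 22.5% were still called with Oxali, 42.0% with IFNγ and 49.3% with Cispl.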

How the data were processed

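ATAC-seq peak lists of Myc-CaP cells were used, 1 per group of 2 libraries. Per the submitters' processing notes and the study's methods, the authors trimmed reads with cutadapt, aligned them to mm10 with Bowtie2 2.2.8, filtered them with SAMtools, removed duplicates and mitochondrial reads, pooled both libraries, called peaks with MACS2 2.1.0 without a control library at a p-value of at most 0.01, and removed blacklisted regions. The deposited fold is a ratio, pileup to local background with 1 added to each. The −log10 p-value that the authors deposited is Poisson, and its adjusted form, a −log10 q-value, is deposited as a score for ranking. The deposited summit offset gives the summit position. Pooling removes the spread between libraries, so no SD, n or test is given, and because MACS2 takes local background into account, broad strong regions raise their own threshold. The study tested counts per replicate, which were not analysed here.

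Distinct intervals were counted once, at their summit of highest significance. The whole-number pileup (tolerance 0.05) and background were solved from the fold and p, and levels are pileups divided by each list's genome background. Start sites (1 kb), genes (5 kb) and exons came from GENCODE M21 on GRCm38. Overlapping intervals of both lists were merged into kept regions, with the strongest pileup of each list. Shares have 95% Wilson intervals and ratios exact binomial ones, for counting error only, and reads from PCR are not independent molecules.

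Named were the 12 gained, 10 lost and 12 gained start-site intervals of highest −log10 q, the 10 genes with most gained intervals, the 8 largest and 8 smallest ratios among kept regions with a pileup of at least 100 in the higher list, list members, and families at both ends. The start-site extremes over all genes and the values at 5′ ends were added after their values were seen. The members and gene lists were chosen with earlier results of these data known. The methods were tested on simulated data. Python 3.11.15, numpy 2.4.6, pandas 2.3.3, scipy 1.17.1, pysam 0.24.0 and matplotlib 3.10.9 were used. Alternatives changed the q threshold, the overlap, the depth, the list length, the windows, the scaling and the fold. Some genes are not reported here.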

Additional observations from a re-analysis of the deposited data

How the results depend on the processing

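No paired analysis was possible because the lists used here were each called on 2 merged libraries, and no library could be left out of them. Counts per replicate were not analysed here. With lists of equal length 28422 intervals were gained and 20837 lost, a gained share of 57.7%. A q-value of at most 1e-05 left 5095 lost intervals and a gained share of 90.3%, a q-value of at most 0.01 gave 87.9%, and leaving out intervals within 500 bp of the other list gave 88.4%. At matched depth, which removed 58 intervals, 69728 were gained and 10554 lost. The start-site share of gained intervals was 5.97% with 500 bp, 20.3% with 2.5 kb and 11.3% at a q-value of at most 1e-05. With start sites alone, 4295 genes had a gained interval. Within 50 bp of the summit the shares were 2.13% for ISRE, 0.315% for NF-κB, 17.3% for AP-1 and 6.07% for CTCF, and at a q-value of at most 0.01 AP-1 had 23.6% and CTCF 7.18%. Kept regions numbered 30339 higher and 1424 lower when scaled by start sites, and 31279 and 14595 at 1.5-fold. Gained intervals in the other lists were 63.1% and 73.4% for Oxali, 12.9% and 14.7% for IFNγ and 59.0% and 66.8% for Cispl at q-values of at most 0.01 and 1e-05. The other 17 recomputed values stayed within 1.5 times the reported count or within its interval, and the 18 list medians stayed within 1.5 times at 5′ ends, a setting chosen after seeing the data. The start-site scale divides every list median by 0.762. The median pileup of gained intervals was 43, and the weakest calls had 21 and 22.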
